A study of Mus musculus with 8 samples.

Results

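The receptors described here are 10 genes for orphan and lipid-sensing G protein-coupled receptors of microglia, the resident macrophages of the brain: Gpr165, Gpr34, Gpr84, Gpr183, Gpr160, Adgrg1, S1pr1, Lpar5, Lpar6 and Ptafr. A probe set of the array was taken for a gene when the platform annotation gave that gene as its only symbol. This gave 9 measured receptors of the 19938 genes measured in all, each with 1 probe set, and Lpar5 is not analysed here. The genes were selected on their receptor class with their measured log2 differences between the knockout and control arrays already in view. The differences of its members are therefore given as a description, with no p-value.

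The study compared microglia of MFP2 knockout mice with microglia of control mice labelled wild type. Both groups were Swiss Webster mice aged 17 weeks and labelled female, and microglia were sorted from whole brain by flow cytometry as CD11b-high, CD45-mid cells. MFP2, multifunctional protein-2, is the enzyme of peroxisomal beta-oxidation encoded by Hsd17b4, and the labels do not say which cells lost it. There were 4 knockout and 4 control arrays, and the labels number the replicates but do not tie them to individual mice. Errors and p-values thus cover the spread between these samples, which may be technical.

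G protein-coupled receptors cross the cell membrane several times and pass the binding of an outside ligand to heterotrimeric G proteins inside the cell. Microglia carry many of them, and several answer to lipids released by neighbouring cells: lysophospholipids, sphingosine-1-phosphate, platelet-activating factor, oxysterols and free fatty acids. Receptors whose ligand has not been settled are called orphans. After activation, receptor kinases and arrestins switch the receptors off, and RGS proteins shorten the signal of the G protein.

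The promoters of those receptors that were lower by the largest amounts and had a sequence in the RefSeq table are shown because they let a reader compare the DNA at genes that changed together. Each line gives 250 bases before an annotated transcript start and 50 bases from it on, 5′ to 3′ on the strand of the gene, in build GRCm38.p6. Gpr165 lies on chromosome X, Gpr183 and Lpar6 on chromosome 14 and Adgrg1, for which the second of its annotated starts in the table is shown, on chromosome 8. Capitals mark every match to a searched motif.
Gpr165, chrX:96713218-96713517, plus strand: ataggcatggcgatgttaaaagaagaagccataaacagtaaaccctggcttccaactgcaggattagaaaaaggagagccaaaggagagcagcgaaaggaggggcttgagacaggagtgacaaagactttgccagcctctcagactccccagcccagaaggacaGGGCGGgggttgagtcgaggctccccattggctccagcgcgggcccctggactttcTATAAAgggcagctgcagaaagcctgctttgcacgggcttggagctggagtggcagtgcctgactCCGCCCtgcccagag
Gpr183, chr14:121965144-121965443, minus strand: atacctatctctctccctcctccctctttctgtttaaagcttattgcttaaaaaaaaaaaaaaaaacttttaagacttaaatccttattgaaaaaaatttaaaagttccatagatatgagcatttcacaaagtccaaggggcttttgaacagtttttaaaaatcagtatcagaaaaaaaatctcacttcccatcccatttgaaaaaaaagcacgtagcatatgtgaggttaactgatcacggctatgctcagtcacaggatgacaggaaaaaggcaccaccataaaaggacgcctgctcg
Lpar6, chr14:73237641-73237940, plus strand: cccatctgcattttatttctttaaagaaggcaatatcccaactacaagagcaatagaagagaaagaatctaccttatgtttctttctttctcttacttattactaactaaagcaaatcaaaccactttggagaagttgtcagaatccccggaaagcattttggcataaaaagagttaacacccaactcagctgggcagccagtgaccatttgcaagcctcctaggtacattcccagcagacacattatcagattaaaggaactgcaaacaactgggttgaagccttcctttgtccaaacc
Adgrg1, chr8:94984149-94984448, plus strand: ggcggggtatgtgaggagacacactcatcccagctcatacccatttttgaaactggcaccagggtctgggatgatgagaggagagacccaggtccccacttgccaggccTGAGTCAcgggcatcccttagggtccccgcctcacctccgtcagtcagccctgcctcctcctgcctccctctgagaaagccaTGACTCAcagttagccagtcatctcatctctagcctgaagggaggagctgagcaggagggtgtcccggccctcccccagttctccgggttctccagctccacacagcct

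The windows differed in composition and in the motifs they held. G and C made up 57.0% of the Gpr165 window, 35.3% of that of Gpr183, 40.0% of that of Lpar6 and 60.7% of that of Adgrg1, against a median of 52.7% over all promoters in the table. Motifs were searched on both strands: the core of PU.1 sites (GAGGAA), the Sp1 box (GGGCGG), the TATA box (TATAAA), the AP-1 site (TGANTCA), an E-box (CACGTG), the IRF motif (GAAA, any 2 bases, GAAA), the Mef2 motif (CTA, any 4 bases, TAG) and the nuclear receptor repeat DR1 (AGGTCA, any 1 base, AGGTCA). In the same order they occur in 28.3%, 35.7%, 13.6%, 7.81%, 7.15%, 3.44%, 3.69% and 0.0396% of the 32851 promoters. The Gpr165 window held, counting the annotated start as 0, a TATA box at -30 to -25, an Sp1 box at -86 to -81 and another Sp1 box on the opposite strand at 35 to 40. The Adgrg1 window held 2 AP-1 matches, at -141 to -135 and -59 to -53, and the other Adgrg1 window in the table held no match. Which of these Adgrg1 starts microglia use was not tested. No searched motif was found in the windows of Gpr183, Lpar6 and Gpr84. The Ptafr window held a PU.1 core and an Sp1 box, and that of Gpr160 held 5 Sp1 matches. Of the members, 8 had a promoter in the table; Gpr34 and S1pr1 had none.

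The arrays were checked against their labels before the receptors were read. Hsd17b4, the targeted gene, had log2 values of 4.76, 7.20, 5.21 and 5.20 in knockout 1 to knockout 4, against 8.83, 9.09, 8.15 and 7.82 in control 1 to control 4, and knockout 2 stood closest to the controls. The first principal component of all genes held 48.7% of the variance and placed control 3 nearest to the knockout arrays. It placed knockout 1 and knockout 2 at -12.4 and -12.7, nearer to the controls than knockout 3 and knockout 4 at -26.0 and -30.2. Xist and the Y-linked Eif2s3y went against the female label in control 1, with 6.80 and 8.14 there, while the other control arrays had at least 10.82 and at most 2.99. Some results below are therefore also given without knockout 2, control 3 or control 1. Microglial markers were strong in every array, as with Tmem119 at 11.83 ± 0.12 in knockouts and 12.49 ± 0.10 in controls, Cx3cr1 at 12.29 ± 0.07 in knockouts and 12.79 ± 0.05 in controls and P2ry12 at 10.65 ± 0.11 in knockouts and 11.10 ± 0.14 in controls (SD, n = 4 each). Neutrophil markers were present in all arrays, with linear values over 8 genes that summed to between 7061 and 12560 in knockouts and between 2915 and 19500 in controls. The lowest control sum was that of control 1, and control 2, control 3 and control 4 had 11970, 19500 and 16580. In sorted bulk cells, fewer cells of a type and less RNA per cell cannot be told apart.

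Among the 9 measured receptors, 6 were lower in knockout microglia, 2 were higher and 1 did not pass the limma threshold, an adjusted p under 0.05 over all genes. Over all genes 9.55% passed it, 4.17% lower and 5.38% higher. The knockout and control values did not overlap for 7 receptors, 6 lower and 1 higher, against 14.0% of all genes, 6.92% lower and 7.09% higher. Because the members were chosen with this comparison in view, nothing is read from these counts. The median log2 change of the 9 receptors was -0.58, and that of all 19938 genes was -0.02.

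**Figure D1:**
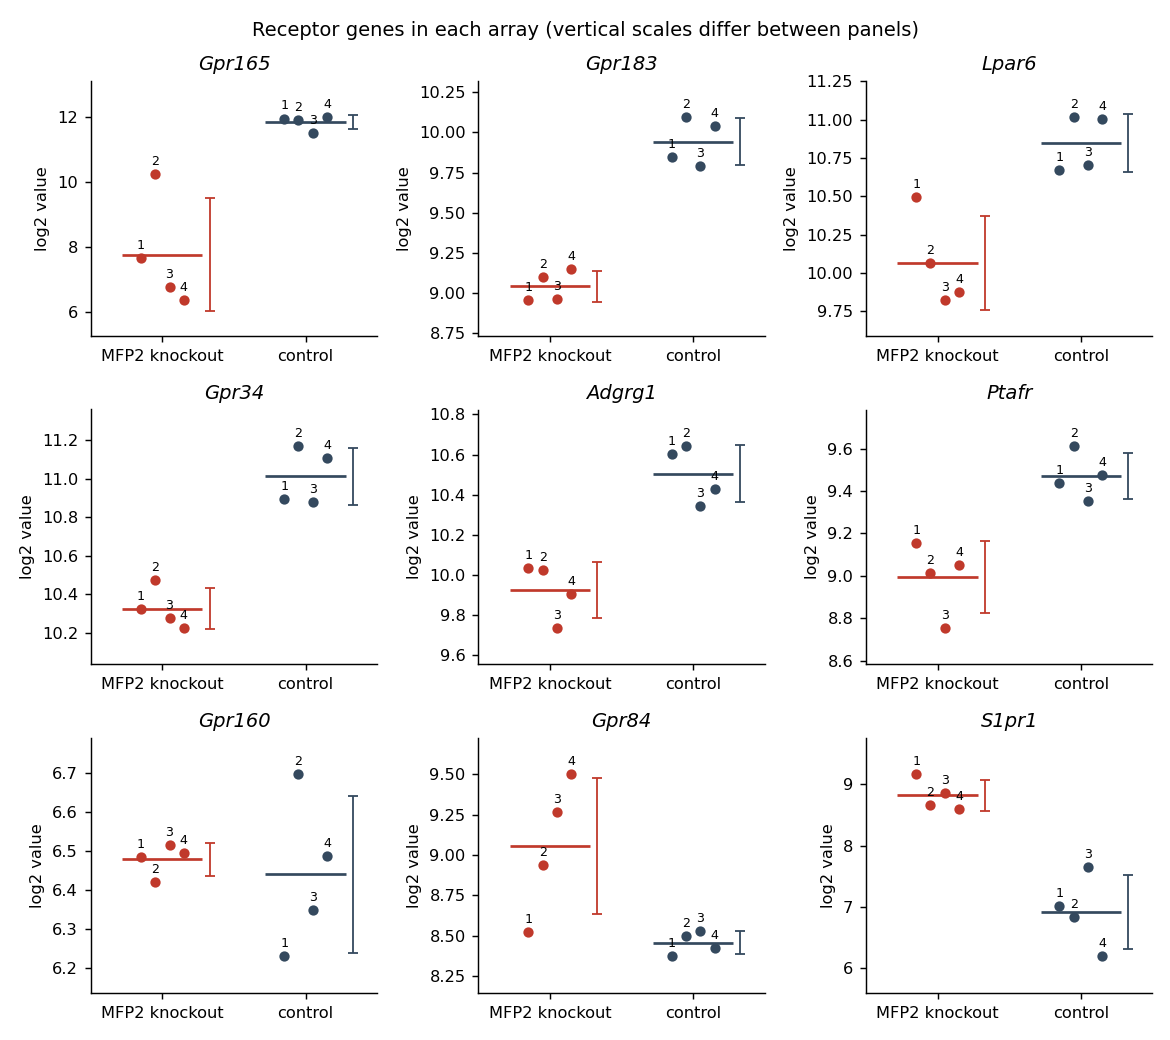
Log2 value of each receptor gene (vertical axis, own scale in each panel) in the 4 MFP2 knockout arrays (red) and the 4 control arrays (dark blue), ordered by change; points are arrays numbered by replicate, horizontal lines are group means and bars are SD. Knockout 2 stands at 10.25 for Gpr165, between the other knockout arrays and the controls, and the groups overlap for Gpr160 and Gpr84.

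Gpr165, an orphan receptor of the rhodopsin-like class, had log2 values of 7.66, 10.25, 6.76 and 6.38 in knockout 1 to knockout 4, against 11.964, 11.921, 11.525 and 11.997 in control 1 to control 4. Every knockout array was below every control array, but the knockout arrays spread over 3.87 log2 units while the controls spread over 0.47. Group means were 7.76 ± 1.74 in knockouts and 11.85 ± 0.22 in controls (SD, n = 4 each), a log2 change of -4.09 ± 0.62 (SE) or 17.0-fold, the lowest change of all genes tested. On the linear scale, knockout 1, knockout 3 and knockout 4 held 5.44%, 2.90% and 2.24% of the mean control level, and knockout 2 held 32.7%. The log2 change was -4.92 without knockout 2 and -5.03 without knockout 2 and control 3. These were the arrays nearest to the other group, so leaving them out enlarges the change by construction. Its gene lies on the X chromosome, and the value of control 1, the array that went against its sex label, was within those of the other controls. Without control 1 the change was -4.05.

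Gpr34, a receptor for lysophosphatidylserine that is strongly expressed by microglia, was also lower. Its log2 values were 10.33, 10.47, 10.28 and 10.22 in the knockout arrays, against 10.89, 11.17, 10.88 and 11.11 in the control arrays. The groups stood 0.40 apart at their nearest arrays, knockout 2 and control 3, and the change was -0.69 ± 0.10 (SE), or 1.61-fold. The spread of the knockout arrays, 0.25, was close to that of the controls, 0.29. Gpr34 is X-linked as well, and the change was -0.73 without control 1. Its gene lies inside Cask, which encodes a membrane scaffold kinase and was chosen for this position. Cask averaged 8.16 ± 0.24 in knockouts and 8.71 ± 0.09 in controls (SD, n = 4 each) and fell by 0.55 (limma adjusted p = 0.0105), and whether probes of one gene pick up transcripts of the other was not tested.

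Gpr183 guides immune cells along gradients of dihydroxylated oxysterols. It had log2 values of 8.96, 9.10, 8.96 and 9.15 in the knockout arrays and 9.85, 10.09, 9.79 and 10.04 in the control arrays. After Gpr165 it had the widest gap of the lower receptors, 0.64 between the nearest arrays of the groups. The change was -0.90 ± 0.10 (SE), or 1.87-fold, and ran from -0.97 to -0.85 over the alternatives. Gpr183 lies inside Ubac2 on the opposite strand. Ubac2 averaged 8.01 ± 0.15 in knockouts and 7.84 ± 0.05 in controls (SD, n = 4 each) and did not pass the test (limma adjusted p = 0.329).

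Lpar6, a receptor for lysophosphatidic acid that couples mainly to G12/13 proteins, had log2 values of 10.50, 10.06, 9.83 and 9.87 in the knockout arrays, against 10.67, 11.01, 10.70 and 11.00 in the control arrays. Knockout 1 lay 0.17 below the nearest control array, control 1, the narrowest gap among the receptors whose groups were apart. The change was -0.78 ± 0.15 (SE), or 1.72-fold, and was -0.93 without knockout 1. Lpar6 lies inside Rb1, the retinoblastoma gene. Rb1 averaged 8.85 ± 0.19 in knockouts and 9.13 ± 0.13 in controls (SD, n = 4 each) and did not pass the test (limma adjusted p = 0.173).

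Adgrg1, the adhesion receptor also called GPR56, binds tissue transglutaminase and collagen and is a marker of microglia among brain macrophages. Its log2 values were 10.04, 10.03, 9.74 and 9.91 in the knockout arrays, against 10.60, 10.64, 10.34 and 10.43 in the control arrays. All knockout values lay below all control values, with a gap of 0.31 and a change of -0.58 ± 0.10 (SE), or 1.49-fold.

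Ptafr, the receptor for platelet-activating factor, had the smallest change of the lower receptors. It had log2 values of 9.15, 9.01, 8.75 and 9.05 in the knockout arrays and 9.44, 9.61, 9.35 and 9.48 in the control arrays. The groups were 0.20 apart, between knockout 1 and control 3, and the change was -0.48 ± 0.10 (SE), or 1.39-fold. Ptafr is also used by neutrophils, whose markers overlapped between the groups, as given above, and of which 0 of 8 passed the test. For each of these markers control 1 was the lowest control array. Ngp, Ltf and S100a9 were lower in every knockout array than in control 2, control 3 and control 4, and the other neutrophil markers still overlapped. For Ngp the nearest of these arrays were knockout 2 at 10.59 and control 2 at 10.99. The part of neutrophils in the Ptafr result was not tested.

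S1pr1, the sphingosine-1-phosphate receptor that controls the exit of lymphocytes from lymphoid organs, had the largest increase among the 9 measured receptors. Its log2 values were 9.16, 8.67, 8.86 and 8.60 in the knockout arrays, against 7.02, 6.83, 7.65 and 6.19 in the control arrays. The groups were 0.94 apart, with an SD of 0.25 in knockouts and 0.60 in controls. The change was 1.90 ± 0.24 (SE), or 3.73-fold, with 1.66 without control 4 and 2.14 without control 3. S1pr1 is also strong in endothelial cells, astrocytes and lymphocytes. Linear values of 5 endothelial markers summed to between 311 and 517 in knockouts and between 297 and 440 in controls, those of 6 astrocyte markers to between 700 and 762 in knockouts and between 652 and 762 in controls, those of 9 T and NK cell markers to between 539.0 and 948.5 in knockouts and between 435 and 771 in controls, and those of 5 B cell markers to between 266 and 427 in knockouts and between 262 and 347 in controls. In each of these lists the sums overlapped, but a sum follows its brightest genes and can hide changes of single genes. Within these lists Flt1 rose by 1.99 and Pecam1 fell by 1.56 among endothelial genes, and Gfap rose by 1.28 among astrocyte genes (limma adjusted p = 0.00143, 0.000784 and 0.00201). The T and NK cell genes had a median change of 0.28, and 0 of 9 passed. Among them Cd3g rose by 1.02 and Gzma fell by 0.41 (limma adjusted p = 0.0859 and 0.0661). The part of these cells in the S1pr1 result was not tested.

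Gpr84, a receptor for medium-chain fatty acids that myeloid cells raise under inflammatory stimuli, had log2 values of 8.52, 8.94, 9.26 and 9.50 in the knockout arrays, against 8.37, 8.50, 8.53 and 8.43 in the control arrays. Knockout 2, knockout 3 and knockout 4 were above all controls, while knockout 1 was below control 3. The change was 0.60 ± 0.17 (SE), or 1.51-fold, and the knockout arrays spread over 0.98, against 0.16 for the controls. Gpr84 passed the threshold with all arrays but missed it when any single array other than knockout 1 was left out, with changes from 0.45 to 0.64 in those fits.

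Gpr160, an orphan receptor, was the 1 measured receptor that did not pass the threshold. It had log2 values of 6.48, 6.42, 6.52 and 6.49 in the knockout arrays and 6.23, 6.70, 6.35 and 6.49 in the control arrays. The knockout values lay within the range of the controls. The difference was 0.04 ± 0.10 (SE), with a 95% interval of -0.19 to 0.26.

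**Figure D2:**
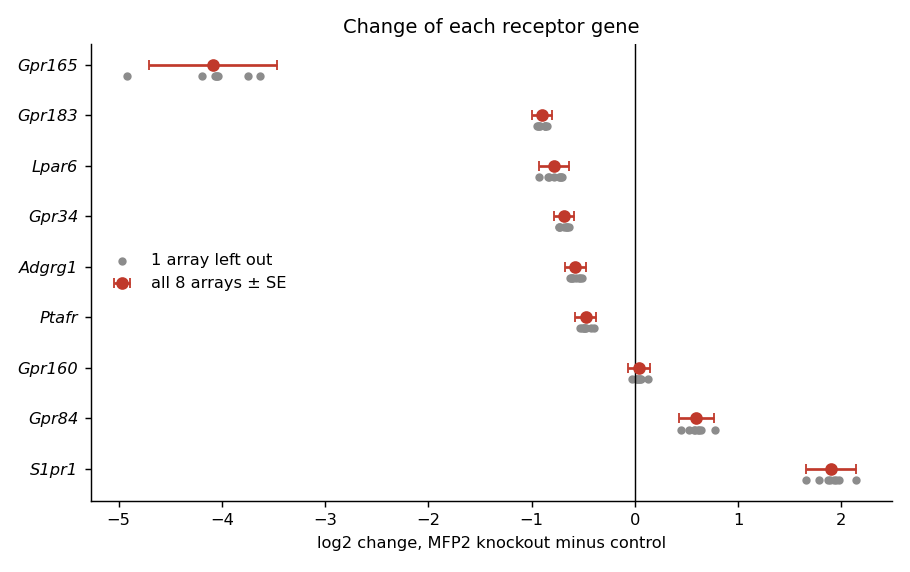
Log2 change of each receptor gene, MFP2 knockout minus control (horizontal axis); red points and bars are the estimate with all 8 arrays and its SE, and grey points are estimates with 1 array left out. Gpr165 lies at -4.09 with left-out estimates from -4.92 to -3.63, the 5 other lower receptors lie between -0.90 and -0.48, and S1pr1 lies at 1.90.

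The arrays did not hold the same place at every receptor. For 6 of the 7 receptors whose groups were apart, control 3 was the control array nearest to the knockouts, the exception being Lpar6 with control 1. Among the knockout arrays, knockout 1 was nearest to the controls for 3 of these receptors, Adgrg1, Lpar6 and Ptafr. Knockout 2 was nearest for Gpr165 and Gpr34, and knockout 4 was nearest for Gpr183 and S1pr1. Without control 3 and knockout 2 the changes were -0.78 for Gpr34, -0.97 for Gpr183, -0.83 for Lpar6, -0.66 for Adgrg1, -0.52 for Ptafr and 2.19 for S1pr1. Leaving out an array that lies nearest to the other group enlarges a change by construction. The larger values in such fits, here and above, are therefore no check of the changes.

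The 5 genes whose values followed Gpr165 most closely were Khdrbs3, Maml3, Inka1, Cmtm8 and Jam2. They had the highest Pearson correlations with Gpr165 over the 8 arrays among genes with a mean of at least 6 and a range of at least 1, at r = 0.987, 0.979, 0.978, 0.976 and 0.975. These values are a description: the arrays fall into 2 groups, and the difference between the groups makes up much of each r. For the deviations of the arrays from their group means, r was 0.940, 0.918, 0.898, 0.922 and 0.896, also a consequence of how the genes were picked. Knockout 2 alone made up 66.8% of the sum of squares of Gpr165 within the groups. Khdrbs3, which encodes an RNA-binding splicing regulator, had 5.75, 7.11, 5.51 and 5.68 in the knockout arrays and 7.87, 7.96, 7.60 and 8.20 in the control arrays. Jam2, a junctional adhesion molecule, had 7.62, 8.19, 7.51 and 7.49 in the knockout arrays and 9.03, 9.09, 8.68 and 9.13 in the control arrays. In all 5 genes knockout 2 was the highest knockout array, which follows from their selection on these arrays. The log2 changes of Maml3, a coactivator of Notch signalling, Inka1, an inhibitor of the kinase PAK4, and Cmtm8 were -0.78, -1.14 and -0.83.

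**Figure D3:**
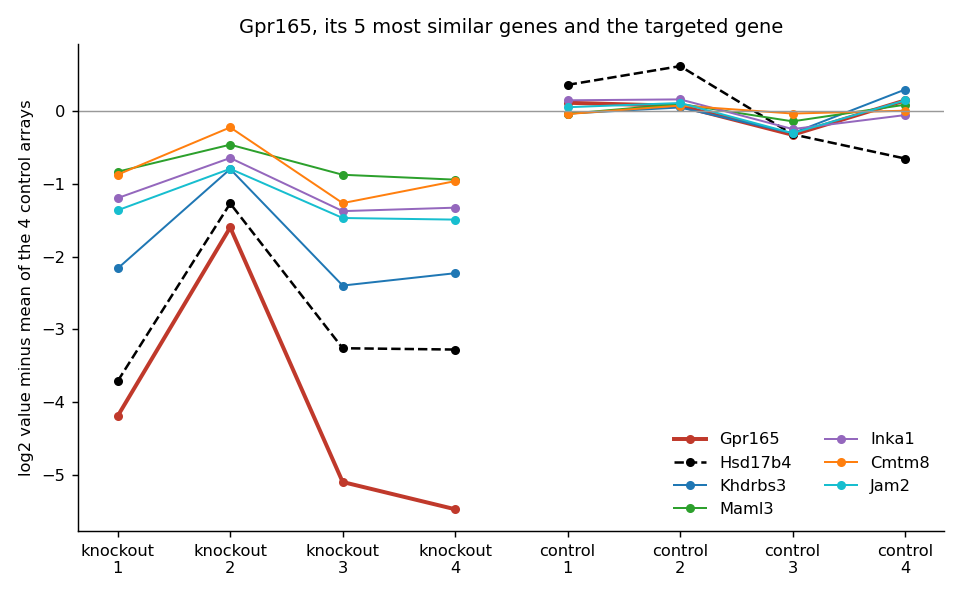
Log2 value minus the mean of the 4 control arrays (vertical axis) in each MFP2 knockout and control array (horizontal axis) for Gpr165, its 5 most similar genes and Hsd17b4; lines join the values of one gene within a group and mark no order. Knockout 2 is the highest knockout array in every line, at 10.25 for Gpr165 and 7.20 for Hsd17b4 before the control mean is taken off.

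The genes that make, break down or sense the ligands of these receptors were then tested, together with their G proteins and regulators. These pathway lists held 96 measured genes, of which 7 were higher and 10 lower in knockout microglia, or 17.7%, against 9.55% of all genes. Their median log2 change was -0.02, and 25 had groups that did not overlap, or 26.0%, against 14.0% of all genes. With the other Gpr-numbered and adhesion receptors, there were 178 measured genes, of which 12 were higher and 12 lower, or 13.5%, and 32 had groups that did not overlap, or 18.0%. Because the lists were chosen with earlier results of these data known, nothing is read from these shares. The adjusted p-values below are those of limma over all genes with n = 4 each, and changes carry their SE.

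The oxysterol pathway of Gpr183 had 1 of 6 genes higher and 0 lower, with a median of -0.04. Ch25h, which makes the oxysterol precursor of the ligand, averaged 9.52 ± 0.59 in knockouts and 8.14 ± 0.35 in controls (SD) and rose by 1.38 ± 0.25 (adjusted p = 0.00414). Receptor and enzyme thus moved in opposite directions. Of the other enzymes of the list, Hsd3b7 was at 7.09 in knockouts and 7.27 in controls, and Cyp7b1 was at 3.70 in knockouts and 3.77 in controls, neither past the threshold.

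The lysophosphatidic acid list had 0 of 9 genes higher and 1 lower, with a median of -0.001 on the log2 scale. Plpp3, a phosphatase that inactivates lysophosphatidic acid and sphingosine-1-phosphate outside the cell, fell by 0.79 ± 0.09, at 5.96 in knockouts and 6.75 in controls (adjusted p = 0.000422). Plpp1, of the same family, went the other way by 0.51 ± 0.15, at 7.98 in knockouts and 7.47 in controls. Its groups did not overlap, but it did not pass (adjusted p = 0.0536). The sister receptors Lpar1, Lpar2, Lpar3 and Lpar4 did not pass, with changes from -0.25 to 0.04. Their levels were low, from 4.08 to 5.87 in knockouts and from 4.13 to 6.12 in controls, and changes of dim genes are understated. Enpp2 is not analysed here.

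For sphingosine-1-phosphate 1 of 12 genes was higher and 0 lower, with a median of -0.14. Sgpl1, the lyase that destroys the lipid, rose by 0.39 ± 0.10, at 9.85 in knockouts and 9.46 in controls (adjusted p = 0.0219). The call was lost without knockout 3 (adjusted p = 0.0739) or control 4 (adjusted p = 0.0652), with a lowest adjusted p of 0.0117 over the alternatives. None of the receptors S1pr2, S1pr3, S1pr4 and S1pr5 passed, with changes of -0.22, -0.12, -0.38 and -0.02 beside the 1.90 of S1pr1. S1pr3 was dim, at 4.10 in knockouts and 4.21 in controls, where a change would be understated.

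The enzymes of platelet-activating factor had 1 of 8 genes higher and 1 lower, with a median of -0.16. Pla2g7, the acetylhydrolase that breaks the lipid down, averaged 8.42 ± 0.16 in knockouts and 7.13 ± 0.34 in controls (SD) and rose by 1.28 ± 0.15 (adjusted p = 0.000441). Lpcat2, the acetyltransferase that makes the lipid in inflammatory cells, averaged 10.88 ± 0.05 in knockouts and 11.49 ± 0.15 in controls (SD) and fell by 0.61 ± 0.09 (adjusted p = 0.00153). In the lysophosphatidylserine list 0 of 7 genes passed by limma, and 0 had an unadjusted p under 0.05. The lowest p was that of Ptdss1, a phosphatidylserine synthase, at 7.26 in knockouts and 6.99 in controls (adjusted p = 0.244).

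Among other receptors for fatty acids, cannabinoids and bile acids, 2 of 14 were higher and 0 lower, with a median of 0.09. Hcar2, which senses niacin and beta-hydroxybutyrate, averaged 9.44 ± 0.44 in knockouts and 7.03 ± 0.74 in controls (SD) and rose by 2.41 ± 0.31 (adjusted p = 0.000627). Cnr2, the cannabinoid receptor of immune cells, rose by 0.73 ± 0.12, at 7.45 in knockouts and 6.72 in controls (adjusted p = 0.0023). The long-chain fatty acid receptors Ffar1 and Ffar4 were dim in both groups, at 4.69 and 4.28 in knockouts against 4.82 and 4.29 in controls.

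Of 64 other receptors with a Gpr number, 4 were higher and 2 lower, or 9.38%. Gpr65, a proton-sensing receptor, averaged 9.40 ± 0.48 in knockouts and 7.32 ± 0.58 in controls (SD) and rose by 2.08 ± 0.27 (adjusted p = 0.000684). Gpr31b rose by 1.02 ± 0.21 (adjusted p = 0.00883) and Gpr162, an orphan, by 0.73 ± 0.12 (adjusted p = 0.00205). Gpr155, known in human cells as a lysosomal cholesterol sensor, fell by 0.73 ± 0.13 (adjusted p = 0.00383). Gpr108 rose by 0.35 (adjusted p = 0.0257) and Gpr21 fell by 0.55 (adjusted p = 0.0167). Both calls were lost in several alternatives, among them the fit without control 1. Of 24 other adhesion receptors 1 was higher and 0 lower: Adgre1, the macrophage antigen, rose by 0.71 ± 0.11, at 10.81 in knockouts and 10.10 in controls (adjusted p = 0.00196), while Adgrg1 of the same family was lower. Of the ligands of Adgrg1, Tgm2, tissue transglutaminase, fell by 1.17 ± 0.10, at 7.28 in knockouts and 8.44 in controls (adjusted p = 0.000169), and Col3a1 was at 6.07 in both groups.

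Downstream of the receptors, the G protein subunits divided. Of 24 measured, 2 were higher and 3 lower, with a median of -0.02. Gnb4, a beta subunit, averaged 5.97 ± 0.32 in knockouts and 7.32 ± 0.11 in controls (SD) and fell by 1.34 ± 0.14 (adjusted p = 0.00029). Gna15, the alpha subunit of blood cells that activates phospholipase C, fell by 0.76 ± 0.10 (adjusted p = 0.000784), and the gamma subunit Gng2 fell by 0.70 ± 0.11 (adjusted p = 0.00162). The gamma subunit Gng12 rose by 0.74 ± 0.12, at 9.33 in knockouts and 8.59 in controls (adjusted p = 0.00231), and Gng5 rose by 0.51 ± 0.12 (adjusted p = 0.0202). The inhibitory alpha subunits Gnai2, at 11.35 in knockouts and 11.54 in controls, and Gnai3, at 8.67 in knockouts and 8.71 in controls, did not pass. Among RGS proteins, receptor kinases and arrestins, 0 of 14 were higher and 4 lower, with a median of -0.14. Arrb1, an arrestin, fell by 0.56 ± 0.11 (adjusted p = 0.00615), Rgs2 by 0.60 ± 0.13 (adjusted p = 0.0124) and Rgs18 by 0.52 ± 0.12 (adjusted p = 0.0144). Rgs18 was dim, at 3.30 in knockouts and 3.82 in controls, and its call was lost without control 2 (adjusted p = 0.0518) and without control 3 and knockout 2 (adjusted p = 0.0815), with a lowest adjusted p of 0.00778 over the alternatives. Arrb2, the other arrestin, fell by 0.37 ± 0.10 (adjusted p = 0.0476), a call lost in 8 of 17 alternatives, among them the fit without control 1.

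**Figure D4:**
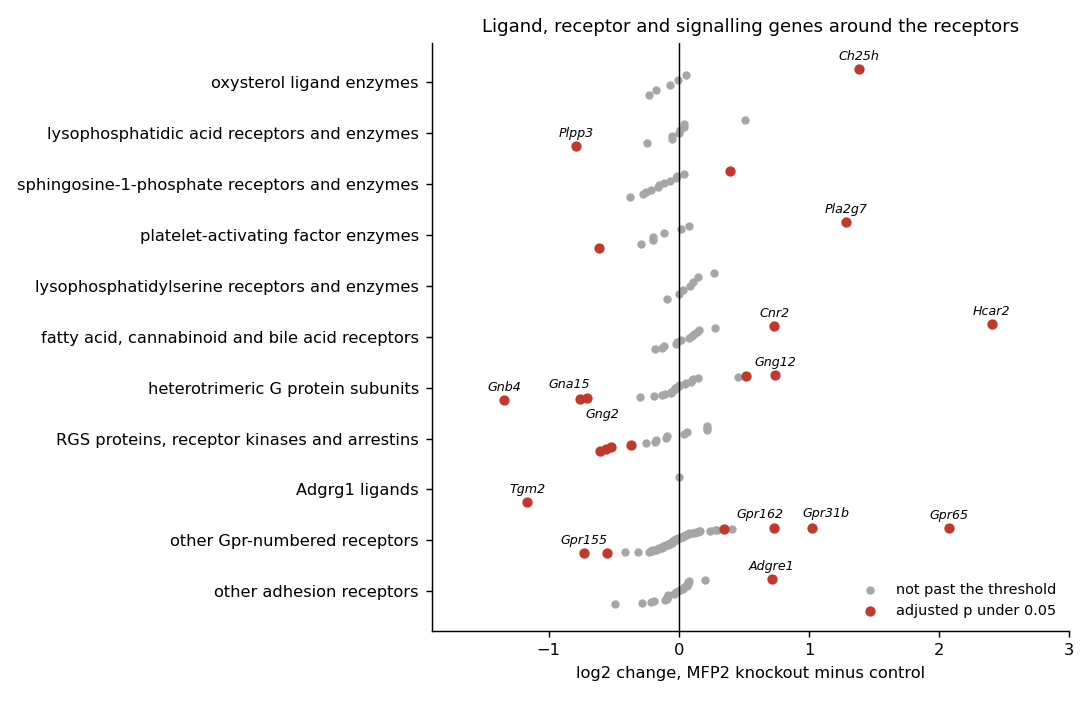
Log2 change, MFP2 knockout minus control (horizontal axis), of each measured gene in the lists of ligand, receptor and signalling genes (rows; the 9 measured receptors themselves are left out); red points passed an adjusted p under 0.05, grey points did not. Hcar2 at 2.41 and Gpr65 at 2.08 lie farthest to the right and Gnb4 at -1.34 farthest to the left, and the lysophosphatidylserine row holds no red point.

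The lower receptors moved together with markers of microglia and of brain-border macrophages. Of 8 measured microglial markers, 7 were lower and 0 higher with a median of -0.52, and their linear values summed to between 20310 and 24210 in knockouts and between 30390 and 35410 in controls. Of 8 border macrophage markers, 4 were lower and 1, Ms4a7, was higher, with Mrc1 at 6.55 in knockouts and 8.10 in controls and Pf4 at 5.53 in knockouts and 6.83 in controls, and their sums lay between 416 and 674 in knockouts and between 678 and 1070 in controls. Monocyte sums overlapped, from 300 to 765 in knockouts and from 359.2 to 609.5 in controls, and Ccr2 was the 1 marker of 4 that passed, at 6.52 in knockouts and 7.12 in controls. Oligodendrocyte sums were higher in knockouts, between 467 and 525, than in controls, between 404.5 and 452.1, with Mbp the 1 marker of 5 that passed. Mbp rose by 0.59, while Mog and Mag changed by -0.24 and -0.06 and Mobp and Cldn11 by 0.02 and 0.06. The median change of this list was 0.02, so the higher sums do not stand for the list as a whole. Neuron sums lay between 253 and 282 in knockouts and between 221 and 259 in controls. The part of these marker differences in the receptor values was not tested.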

How the data were processed

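RNA of sorted microglia was amplified, converted to sense cDNA and hybridised to arrays, per the labels' protocols. The authors deposited log2 values per probe set, which the submitters' processing notes credit to RMA. That the scale is log2 was taken from the values, which span 2.04 to 13.99. The software that ran RMA is not named in them. RMA equalises the arrays and so hides any change common to all genes, and it understates changes of dim genes. The number of arrays limits the precision.

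Of 28874 probe sets, 21789 had 1 gene symbol, 1621 several and 5464 none; 21698 gene numbers matched RefSeq (GRCm38.p6). A gene with several probe sets (999 genes) kept its brightest probe set by mean over the 8 arrays, which left 19938 genes with no filter. Groups were compared with limma 3.58.1 in R 4.3.3 (lmFit, eBayes, two-sided, Benjamini-Hochberg over all genes, adjusted p under 0.05, no covariate). In a simulation of this comparison on 19938 genes, 46.0% of changes of 0.5, 88.0% of 1 and 100% of 2 were recovered, with 11 false calls. It changed far fewer genes than passed in the data and drew independent normal noise, so its rates need not hold for these arrays.

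The members and lists were chosen with earlier results of these data known. Named were all members; up to 4 genes passing per list by adjusted p, or 6 for the Gpr and adhesion lists, or else the one with the lowest p; the 5 genes most like Gpr165, predicted genes left out; Hsd17b4, 3 microglial and 2 sex-check genes. Cask, Ubac2 and Rb1 were added by position, and sister receptors, enzymes and markers as context after their values were seen. The alternatives were other scalings, a dim-gene filter, the mean of probe sets, another prior, array weights, the replicate block, and arrays left out. Figures used matplotlib 3.10.9.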

Additional observations from a re-analysis of the deposited data

Results flagged for a closer look

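In 8 of 94 groups of 4 arrays, over 47 named genes, 1 array stood apart from the other 3 by more than Dixon's 95% critical value, a gap that chance gives in about 5% of groups. Xist at 6.80 and Eif2s3y at 8.14 in control 1 stood farthest apart, below and above the other controls. Gpr165 in control 3 was at 11.52, below the other controls. Khdrbs3 in knockout 2 was at 7.11 and Tgm2 in knockout 2 was at 7.48, both above the other knockouts. Gng12 in control 3 was at 8.90, above the other controls. Gpr21 in control 2 was at 5.26, below the other controls, and Gpr108 in knockout 4 was at 9.48, above the other knockouts.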

How the results depend on the processing

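Over 17 alternatives, no receptor that passed the threshold changed direction. Several of these alternatives cannot alter the estimates of single-probe-set genes, and those that leave arrays out share most arrays with the main fit. Gpr84 lost its call without any single array other than knockout 1, and without control 3 and knockout 2. Gpr160 ran from -0.03 to 0.12. With 1 array left out, the changes ran from -4.92 to -3.63 for Gpr165, -0.74 to -0.63 for Gpr34, 0.45 to 0.78 for Gpr84, -0.95 to -0.85 for Gpr183, -0.63 to -0.51 for Adgrg1, 1.66 to 2.14 for S1pr1, -0.93 to -0.70 for Lpar6 and -0.53 to -0.40 for Ptafr. Over all genes, with 1 array left out, 753 to 1162 were higher and 507 to 960 lower, against 1073 and 832; the lower genes were 544 without control 1, 517 without control 2 and 507 without knockout 3, fits with fewer arrays. The 178 genes of the pathway and receptor lists gave 9 to 13 higher and 10 to 13 lower. Of 24 named list genes, 19 kept their side of the threshold throughout; Sgpl1, Rgs18, Arrb2, Gpr21 and Gpr108 did not, at adjusted p up to 0.0739, 0.0815, 0.134, 0.0919 and 0.0962. The deviations of same-numbered arrays from their group means had r = 0.158, -0.0645, 0.00587 and 0.00783 for numbers 1 to 4. Different-numbered arrays ran from -0.128 (knockout 1 and control 3) to 0.0734 (knockout 1 and control 2). With 4 arrays per group these values cannot settle whether the numbers pair samples. With the replicate number as a block, 1029 genes were higher and 826 lower, 12 and 12 of them in the lists; the estimated changes, such as -4.09 for Gpr165, cannot move under a block in this balanced design, and among the named genes Gpr108 lost its call (adjusted p = 0.0592, against 0.00443 to 0.0962 over all alternatives).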
